A study of Mus musculus with 3 samples.

Results

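The cytosolic ribosomal protein genes, which encode the protein part of the ribosomes in the cytoplasm, were taken from the table of FPKM values by their symbols (Rpl or Rps with a number and, in some genes, a suffix, plus *Rplp0*, *Rplp1*, *Rplp2* and *Rpsa*). This gave 83 of 23421 genes, namely 76 core genes and 7 paralogs, which are additional gene copies with an l, al or l1 in their names. Of the core genes, 46 belong to the large subunit and 30 to the small subunit. The rule leaves out *Rps3a1* and *Fau*, among others, whose products are also part of this ribosome. No measured value was used to choose the genes, but they were chosen with earlier results of these data known.

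A cytosolic ribosome consists of a small subunit, which reads the mRNA, and a large subunit, which joins the amino acids. Each subunit holds ribosomal RNA and 1 copy of nearly every ribosomal protein, so the genes are expressed together and at high levels in growing cells. Many of their mRNAs start with a run of pyrimidines, the terminal oligopyrimidine (TOP) motif, through which translation of these mRNAs follows growth signals. The epiblast at this stage is among the most rapidly dividing tissues of the mouse embryo.

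The libraries came from E6.5 mouse embryos, at embryonic day 6.5, of heterozygous tw18/+ matings, labelled as strain 129/SvEv although the study names non-inbred backgrounds as a possibility, and there were 3 of them, 1 for each of the genotypes wild type, tw18/+ and tw18/tw18. The labels name the tissue as epiblast, whereas by the study's methods the dissected part also holds the visceral endoderm around it. The tw18 chromosome carries a deletion on chromosome 17 that removes several genes, among them *Ppp2r1a*, the scaffold subunit of the phosphatase PP2A, and no library here carries a loss of *Ppp2r1a* alone. How many embryos went into a library is not given in the sources used here. With 1 library per genotype no difference has a replicate check, no p-value is given, and a gene is counted as different where the log2 ratio of its FPKM values is at least 1 and the higher FPKM is at least 1.

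FPKM values are fragments of a gene scaled by transcript length and by the size of the library. The step between low FPKM values gave a depth of about 14900000 fragments in wild type, 20700000 in tw18/+ and 20600000 in tw18/tw18. *Ppp2r1a*, at chr17:20945311-20965916 (GRCm38), was at an FPKM of 146 in wild type, 81.7 in tw18/+ and 12.8 in tw18/tw18, the order of the labels. The deletion removes this gene, so the value above 0 in tw18/tw18 goes partly against the label. Markers listed for decidua and stroma, maternal tissue around the embryo, were mostly higher in the same library than in wild type. *Prl8a2*, the most abundant of them in wild type, was lower (377 beside 1504), and so was their summed FPKM (1398 beside 1791). The part of such tissue in the *Ppp2r1a* value was not tested. *Lars2* was the most abundant gene of wild type (11199) and of tw18/+ (9689) and was listed at 0 in tw18/tw18. The FPKM values summed to 444064 in wild type, 455078 in tw18/+ and 383409 in tw18/tw18, so a scaling to equal sums would raise every log2 ratio of tw18/tw18 against wild type by 0.21.

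The ribosomal protein genes took 18.6% of the FPKM sum in wild type, 19.4% in tw18/+ and 16.5% in tw18/tw18. Without *Lars2* in the sum these shares were 19.1%, 19.8% and 16.5%. The median FPKM of a ribosomal protein gene was 1024 in wild type, 1012 in tw18/+ and 766 in tw18/tw18, whereas the median over all genes of the table was 1.10, 1.09 and 1.47. Of the 100 most abundant genes, 60 were ribosomal protein genes in wild type, 61 in tw18/+ and 61 in tw18/tw18. In wild type 44 of them lay at or above an FPKM of 1000, in tw18/+ 44 and in tw18/tw18 20. Over the whole table, these genes included, 69, 68 and 34 genes lay at or above that level. The levels of the ribosomal protein genes were thus lower in tw18/tw18, whereas their number among the 100 most abundant genes differed by at most 1.

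*Rplp1*, an acidic protein of the stalk that recruits elongation factors, had the highest mean level, with an FPKM of 2868 in wild type, 2783 in tw18/+ and 1757 in tw18/tw18. *Rps2*, of the small subunit, followed with 2596, 2777 and 1961 in the same order of genotypes. *Rpl41*, the smallest protein of the ribosome, had 2353, 2494 and 2047. In each of these genes tw18/tw18 had the lowest value. *Rps12* reached an FPKM of 2207 in wild type, 2367 in tw18/+ and 1495 in tw18/tw18. *Rpl10*, an X-linked protein that joins the large subunit late in its assembly, had 2006, 2201 and 1625. At the low end of the core genes stood *Rpl34*, *Rpl26*, *Rps15a*, *Rpl30* and *Rps27*, all with a mean FPKM under 150, and *Rpl22*, with 149.7, 160 and 115. The first 5 each have a near-identical copy elsewhere in the genome that the table lists with a value of its own.

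**Figure D1:**
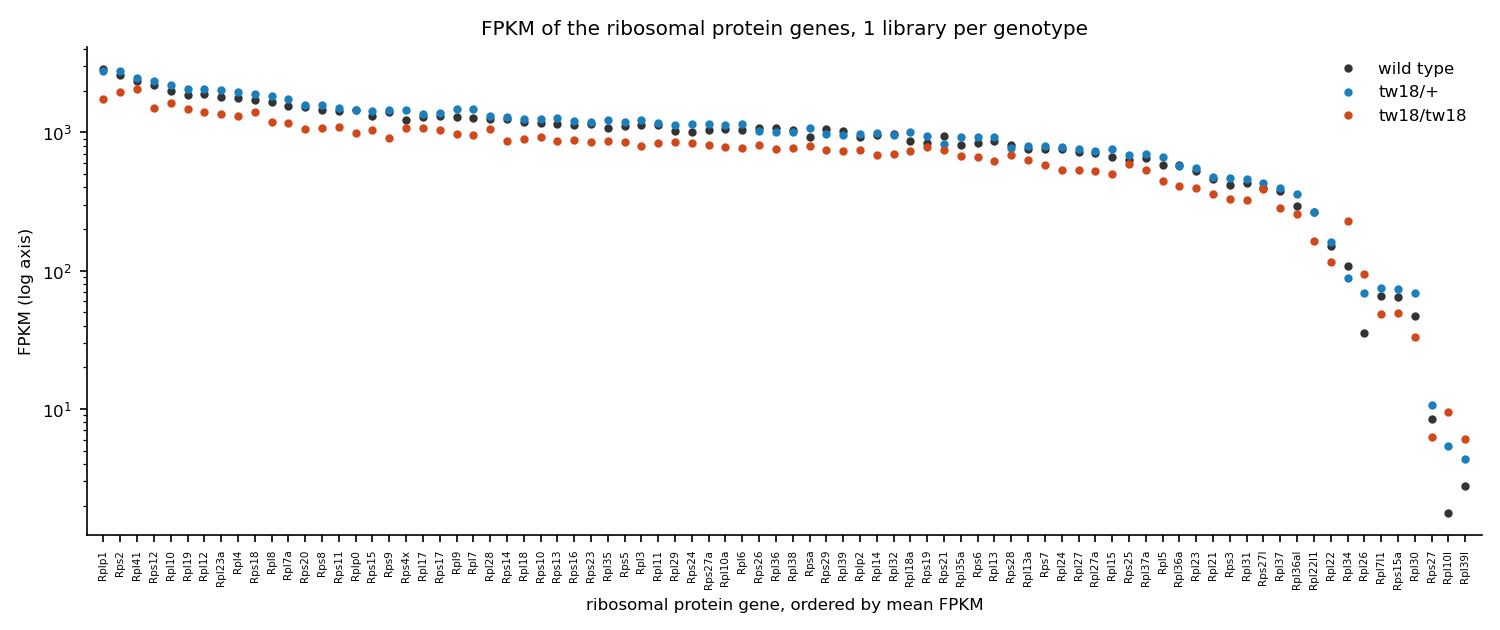
FPKM on a log axis of the 82 ribosomal protein genes with a value above 0, ordered by their mean over the 3 libraries, each point 1 library and each colour a genotype. In most genes the tw18/tw18 point is the lowest, and *Rpl10l*, *Rpl39l* and *Rps27* lie near or under 10.

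The first comparison asked whether a single tw18 chromosome goes with a difference in these genes. Of the 82 genes that reached an FPKM of 1 in any library, 71 were higher in tw18/+ than in wild type and 11 were lower, with a median log2 ratio of 0.10 (25th to 75th percentile 0.06 to 0.17). Over all 12426 genes tested the median was 0.0021, and 50.3% of the 12281 with a value above 0 in both libraries were higher. Of the 57 other genes with a mean FPKM of at least 500 over the 3 libraries, 47 were higher and 10 were lower. A log2 ratio of at least 1 was reached by 1 of the 82 genes in the higher direction, the paralog *Rpl10l*, against 4.7% of all genes tested, and by 0 in the lower direction, against 5.02%. The core gene furthest up was *Rpl26* with 0.97, followed by *Rpl30* with 0.53 and *Rps27* with 0.31, and the furthest down was *Rpl34* with -0.29. All 4 belong to the low genes with near-identical copies. Outside them the log2 ratios of the 71 other core genes ran from -0.20 (*Rps21*) to 0.26 (*Rps4x*).

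The second comparison asked what goes with the homozygous tw18 genotype, as labelled. In tw18/tw18, 78 of the 82 genes were lower than in wild type and 4 were higher, and the median log2 ratio was -0.39 (25th to 75th percentile -0.45 to -0.29), which corresponds to 0.761 times the wild-type level. The median over all 12917 genes tested was -0.016, and 50.9% of the 12625 with a value above 0 in both libraries were lower. None of the 78 lower genes reached a log2 ratio of 1, against 6.94% of all genes tested, and their log2 ratios ran from -0.71 (*Rplp1*) to -0.026 (*Rps27l*). The 4 higher genes all passed the threshold, against 15.1% of all genes tested, and were the paralogs *Rpl10l* (2.41) and *Rpl39l* (1.11) and the core genes *Rpl26* (1.41) and *Rpl34* (1.08). After scaling to equal FPKM sums 71 of the 82 genes were lower, with a median of -0.18, when that of all genes was 0.205.

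Against tw18/+, which shares the tw18/tw18 library with the comparison above, 78 of 82 genes were lower in tw18/tw18, with a median log2 ratio of -0.47 (25th to 75th percentile -0.57 to -0.41). Of all 12703 genes tested with a value above 0 in both libraries, 49.8% were lower. Of the 56 such other genes with a mean FPKM of at least 500, 49 were lower. *Rpl34* was the 1 gene higher by a log2 ratio of at least 1, with 1.37, against 14.9% of all 12846 genes tested. *Rpl30* was the 1 gene lower by as much, with -1.04, against 5.65% of all genes tested. In 68 of the 83 genes the order of the levels was tw18/+, wild type, tw18/tw18, from high to low. A further 10 genes, among them *Rplp1*, *Rpl38*, *Rpl39* and *Rps29*, were highest in wild type and lowest in tw18/tw18. *Rpl10l*, *Rpl26* and *Rpl39l* were lowest in wild type and highest in tw18/tw18, *Rpl34* was highest in tw18/tw18 and lowest in tw18/+, and *Rpl3l*, expressed in heart and skeletal muscle, was listed at 0 in all 3 libraries.

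**Figure D2:**
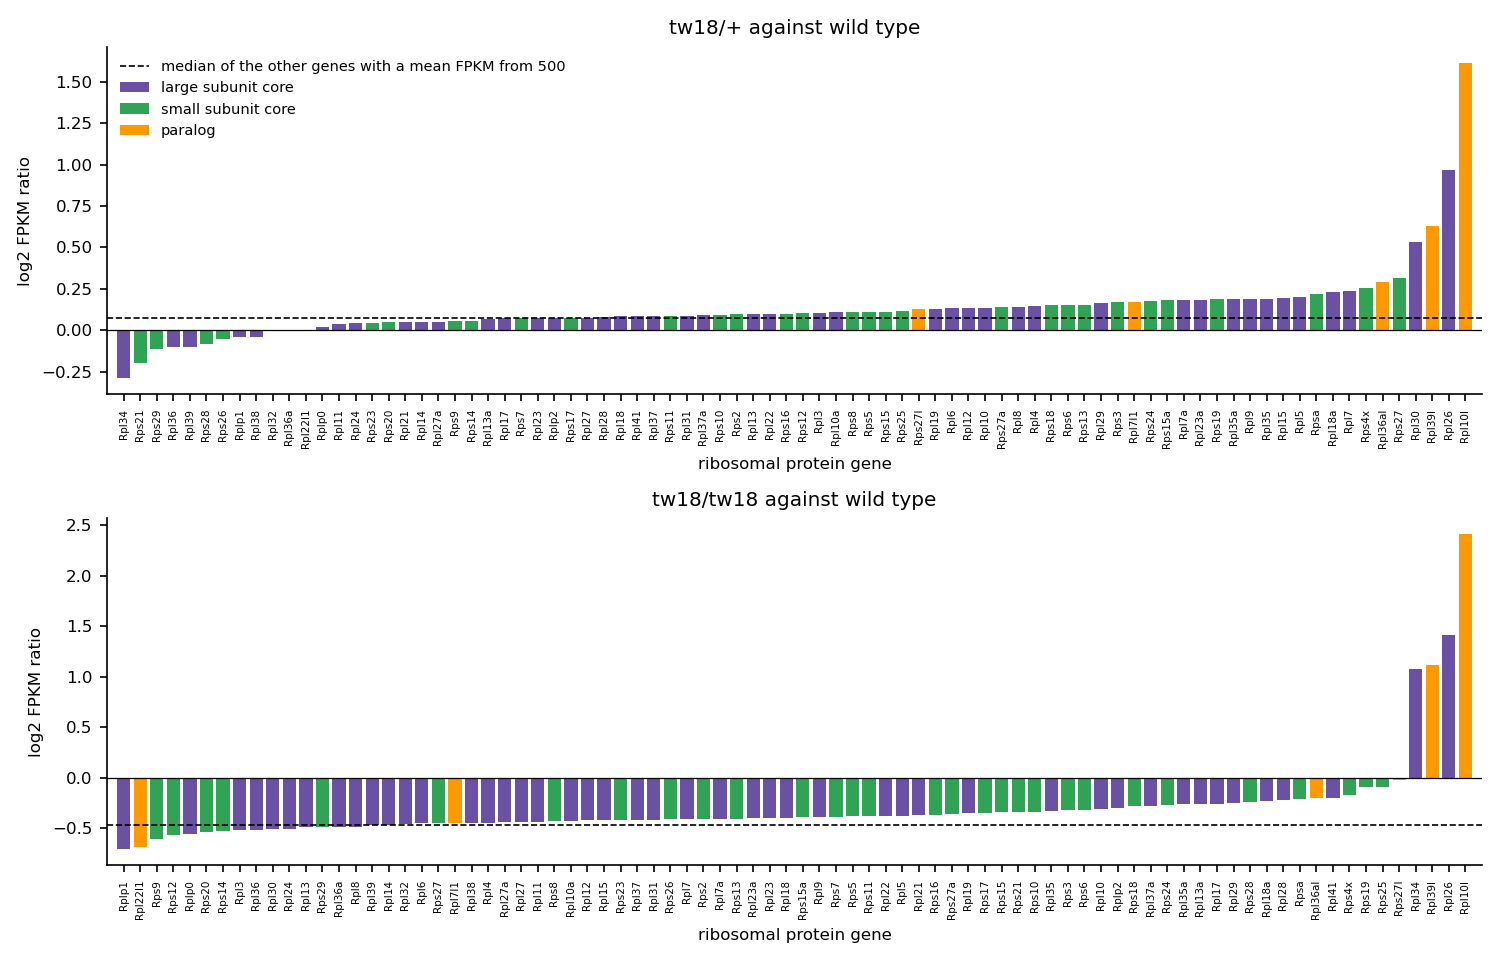
Log2 FPKM ratio of each of 82 ribosomal protein genes, sorted, in tw18/+ (upper panel) and tw18/tw18 (lower panel) against wild type, 1 library each; colours mark subunit and paralogs, and the dashed line is the median of the other genes with a mean FPKM of at least 500. In the lower panel 78 bars lie below 0 and most lie near the dashed line at -0.47, and *Rpl34*, *Rpl39l*, *Rpl26* and *Rpl10l* stand above 1.

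Other abundant genes had log2 ratios of like size. The 65 ribosomal protein genes with a mean FPKM of at least 500 over the 3 libraries had a median log2 ratio of -0.40 in tw18/tw18 against wild type (25th to 75th percentile -0.45 to -0.30). Among the 57 other genes of that level, 50 of the 56 with a value above 0 in both libraries were lower in tw18/tw18, with a median of -0.47 (-0.65 to -0.25). Leaving out copies of ribosomal protein genes and all genes of the translation lists left 39 of them, with a median of -0.49. The ribosomal protein genes differed from the other genes of their level by a median of 0.07 in tw18/tw18 against wild type and 0.02 in tw18/+ against wild type. In tw18/tw18 against wild type the 25th to 75th percentile range of the ribosomal protein genes lay within that of the other genes, but in tw18/+ it did not (0.052 to 0.151 beside 0.027 to 0.124).

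The log2 ratio in tw18/tw18 went down with the level of a gene over the whole table. Other genes with a mean FPKM of 1 to 10 had a median of 0.21 against wild type, those of 10 to 100 a median of -0.12 and those of 100 to 500 a median of -0.31. The 10 ribosomal protein genes of 100 to 500 had a median of -0.37. In tw18/+ against wild type the medians of the other genes were -0.026, 0.0044, 0.060 and 0.074 from the lowest to the highest range, and that of the 65 abundant ribosomal protein genes was 0.098. Abundant transcripts of other functions were thus lower in tw18/tw18 as well. FPKM values are relative to the library, so they hold no measure of RNA per cell.

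**Figure D3:**
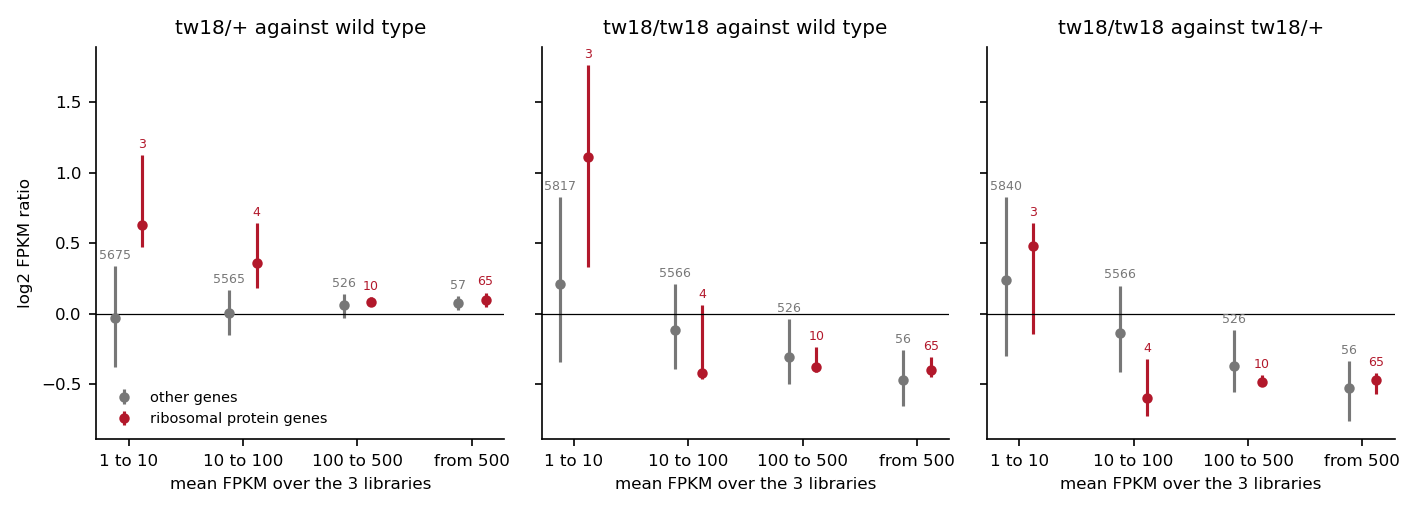
Median log2 FPKM ratio (points) with the 25th to 75th percentile (bars) of the ribosomal protein genes and of all other genes, in 4 ranges of the mean FPKM over the 3 libraries, for each pair of libraries; the numbers above the bars are genes with a ratio. In the highest range the 65 ribosomal protein genes and the other genes have medians of -0.40 and -0.47 in tw18/tw18 against wild type.

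Markers of cell types moved between the same libraries. All 10 epiblast markers were lower in tw18/tw18 than in wild type, 5 of them past the threshold, and their summed FPKM was 1949 in wild type, 2071 in tw18/+ and 1002 in tw18/tw18. Of 12 visceral endoderm markers, 11 were higher in tw18/tw18, none past the threshold, with sums of 1079, 1067 and 1486. Extra-embryonic ectoderm markers were higher past that threshold in 8 of 10 and lower in 1 (sums 121, 101 and 135). Decidua and stroma markers were higher past it in 11 of 14 and lower in 1, and their sums of 1791, 428 and 1398 were dominated in wild type by *Prl8a2* (1504). Endothelial markers were higher past it in 5 of 8 (57.8, 46.4 and 120), immune markers in 2 of the 4 of 10 that reached an FPKM of 1 (18.1, 12.1 and 29.1) and erythroid markers in 3 of the 4 of 8 that did, with 1 lower (52.5, 56.3 and 177). Of all genes tested in this comparison 15.1% were higher past the threshold and 6.94% lower. The lists are not specific to 1 tissue. The study relates higher *Bmp2* and *Hand2* (here in the decidua and stroma list), *Hand1* (extra-embryonic ectoderm) and *Eng* (endothelium) to embryonic mesoderm downstream of BMP signalling. Among the genes at 0 in at least 1 library were *Hba-x*, *Hbb-bh1* and *Hbb-y* of the erythroid list and *C1qa*, *Gzma* and *Klrb1c* of the immune list. The part of these cell types in the levels of the ribosomal protein genes was not tested, and in bulk RNA fewer cells of a type and less RNA per cell cannot be told apart.

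Both subunits differed by nearly the same amount. The 46 core genes of the large subunit had a median log2 ratio of -0.41 in tw18/tw18 against wild type (-0.46 to -0.31) and the 30 of the small subunit one of -0.37 (-0.41 to -0.32). In tw18/+ against wild type the medians were 0.089 and 0.11. Large minus small gave -0.037 in tw18/tw18 and -0.016 in tw18/+, less than the distance between the 25th and 75th percentile of either subunit. All 30 core genes of the small subunit were lower in tw18/tw18 than in wild type, and so were 44 of the 46 of the large subunit, with *Rpl26* and *Rpl34* as the exceptions.

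The stalk genes of the large subunit included some of the lowest ratios. *Rplp1* had the lowest log2 ratio of all members in tw18/tw18 against wild type, -0.71, with an approximate counting error of 0.017 (SE on the log2 scale). *Rplp0*, to which the other stalk proteins bind, stood at an FPKM of 1442 in wild type, 1459 in tw18/+ and 984 in tw18/tw18, a log2 ratio of -0.55. *Rplp2*, the partner of *Rplp1*, had 925, 975 and 750, a log2 ratio of -0.30. The ratios of *Rplp1* and *Rplp2*, whose proteins pair in the ribosome, thus differed by more than counting error.

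In the small subunit *Rps9* was at an FPKM of 1395 in wild type, 1449 in tw18/+ and 917 in tw18/tw18, a log2 ratio of -0.60. *Rps12* had a log2 ratio of -0.56, and *Rps20*, of the head of the subunit, one of -0.53 from an FPKM of 1527, 1579 and 1056. At the other end, *Rps25*, which many viral internal ribosome entry sites require, had 628, 682 and 591, a log2 ratio of -0.088. *Rps19*, the gene most often mutated in Diamond-Blackfan anaemia, had 833, 949 and 781, a log2 ratio of -0.094. *Rps4x*, an X-linked small subunit gene, had 1220, 1457 and 1083, a log2 ratio of -0.17. After scaling to equal FPKM sums, *Rps25*, *Rps19* and *Rps4x* were higher in tw18/tw18 than in wild type, as were *Rpsa*, *Rpl41*, *Rpl36al* and *Rps27l*.

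Further genes are known as targets of signalling or for roles outside the ribosome. *Rps6*, the target of the S6 kinases, reached an FPKM of 833 in wild type, 925 in tw18/+ and 667 in tw18/tw18, a log2 ratio of -0.32. *Rpl5* and *Rpl11*, which with the 5S RNA bind Mdm2 when ribosome assembly fails, had log2 ratios of -0.38 and -0.43. *Rpl5* had 581, 667 and 448 and *Rpl11* had 1133, 1161 and 840. *Rps27a*, made as a fusion with ubiquitin, had 1035, 1141 and 810, a log2 ratio of -0.35, and *Rpsa*, first described as a laminin receptor, had 924, 1076 and 798, a log2 ratio of -0.21. In each of these genes tw18/+ was highest and tw18/tw18 lowest.

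Of 18 genes mutated in Diamond-Blackfan anaemia, an anaemia caused by the lack of 1 gene copy of a ribosomal protein, 17 were lower in tw18/tw18 than in wild type, with a median of -0.38. *Rpl26* was the exception, and none of the 17 reached a log2 ratio of 1. Of 8 genes with known mouse mutants all were lower, with a median of -0.41. Among them *Rpl38*, whose mutation in mice alters the axial skeleton, stood at an FPKM of 1042 in wild type, 1012 in tw18/+ and 766 in tw18/tw18, a log2 ratio of -0.44. *Rpl24*, mutated in Belly spot and tail mice, had 756, 779 and 533, a log2 ratio of -0.50. The median of all 82 genes was -0.39.

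Chromosome 17, which carries the deletion, holds 8 of the 83 genes, all distal of *Ppp2r1a*. The nearest are *Rps2* (24718116 to 24721929, GRCm38) and *Rpl3l* (24727820 to 24736143), 3.75 Mb and 3.76 Mb away, and the farthest is *Rpl36* at 35.6 Mb. In the study's map the deletion ends before the nearest of these genes, so all of these genes lie outside it. Apart from *Rpl3l*, which was listed at 0, their median log2 ratio was 0.097 in tw18/+ and -0.40 in tw18/tw18 against wild type. *Rps2* had -0.40, *Rps10* -0.34, *Rpl10a* -0.42, *Rps28* -0.24, *Rps18* -0.28, *Rpl7l1* -0.45 and *Rpl36* -0.51 in tw18/tw18. None had a value in tw18/+ or tw18/tw18 as low as that of *Ppp2r1a*, whose log2 ratio was -0.84 and -3.52. The X-linked *Rpl10*, *Rpl36a*, *Rpl39* and *Rps4x* had a median of -0.39 in tw18/tw18.

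The 5 core genes with the lowest levels each have a near-identical intronless copy elsewhere in the genome that is also listed in the table. The following stretches of coding sequence are shown because they hold the bases by which a gene and its copy can be told apart. Positions count from 1 at the first base of the start codon, the copies' coordinates are GRCm38, the sequences are from GENCODE M21 transcripts, and capitals mark the bases that differ.

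Rpl34: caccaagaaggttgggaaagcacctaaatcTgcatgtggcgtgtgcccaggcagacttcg
Rpl34-ps1: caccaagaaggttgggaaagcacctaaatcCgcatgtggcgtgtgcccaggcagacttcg
Rpl26: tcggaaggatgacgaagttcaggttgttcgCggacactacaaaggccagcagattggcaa
Gm15772: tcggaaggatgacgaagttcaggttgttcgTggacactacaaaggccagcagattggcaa
Rpl30: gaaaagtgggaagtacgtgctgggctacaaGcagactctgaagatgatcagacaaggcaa
Gm12191: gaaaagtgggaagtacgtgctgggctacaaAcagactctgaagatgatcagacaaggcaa
Rps15a: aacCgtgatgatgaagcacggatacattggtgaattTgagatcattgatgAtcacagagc
Rps15a-ps6: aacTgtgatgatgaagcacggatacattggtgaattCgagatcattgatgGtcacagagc

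These stretches are coding bases 102 to 161 of *Rpl34* (T132C), 147 to 206 of *Rpl26* (C177T), 66 to 125 of *Rpl30* (G96A) and 114 to 173 of *Rps15a* (C117T, T150C and A164G), with the gene's base first and the copy's base last. The stretches of the copies lie at chr6:71124711-71124770, plus strand, for *Rpl34-ps1*, at chr5:3236577-3236636, plus strand, for *Gm15772*, at chr11:49678933-49678992, minus strand, for *Gm12191*, and at chr11:6172864-6172923, minus strand, for *Rps15a-ps6*. Over the whole coding sequence *Rpl34* and *Rpl34-ps1* differed at 2 of 351 bases, *Rpl26* and *Gm15772* at 2 of 435, *Rpl30* and *Gm12191* at 1 of 345, and *Rps15a* and *Rps15a-ps6* at 5 of 390. *Rps27* and *Gm9846*, now named *Rps27rt*, were identical over all 252 bases. A 50-base read that covers none of the differing bases matches gene and copy alike. RefSeq lists *Rpl26* among the other names of *Gm15772* and *Rps27* among those of *Rps27rt*.

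In all 5 cases most of the FPKM stood under the name of a copy. *Rpl34* was listed with 107 in wild type, 87.8 in tw18/+ and 227 in tw18/tw18, and *Rpl34-ps1*, at 71124610 to 71124963 on chromosome 6, had 934, 969 and 573. The share listed under *Rpl34* was thus 10.3%, 8.31% and 28.4%. For *Rpl26* the FPKM was 35.5, 69.3 and 94.4 and for *Gm15772* 1199, 1291 and 861. *Rpl30* had 47.3, 68.6 and 33.3 beside 963, 1126 and 843 for *Gm12191*. *Rps27* had 8.52, 10.6 and 6.25, from about 25, 43 and 25 fragments, beside 1454, 1345 and 1051 for *Gm9846*. *Rps15a* had 64.9, 73.7 and 49.5, whereas its copies *Rps15a-ps6* and *Rps15a-ps4* had 164, 189 and 126 and 19.5, 22.2 and 16.6.

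When the FPKM values of gene and copies were summed, a choice made after seeing the data, the log2 ratios of tw18/tw18 against wild type were -0.38 for *Rpl34*, -0.37 for *Rpl26*, -0.20 for *Rpl30*, -0.37 for *Rps15a* and -0.47 for *Rps27*. The higher values of *Rpl34* and *Rpl26* in tw18/tw18 were absent from the sums, and 2 of the 82 genes, *Rpl10l* and *Rpl39l*, remained past the threshold. These sums consist mostly of the copies, since in wild type 10.3% stood under *Rpl34* and 2.88% under *Rpl26*. They also add FPKM values scaled by unlike transcript lengths and are approximate. Against tw18/+ the sums of *Rpl34* and *Rpl30* gave -0.40 and -0.45, so that no core gene was past the threshold. The summed levels of *Rpl34*, *Rpl26*, *Rpl30* and *Rps27* were between 1010.1 and 1462 in wild type, and that of *Rps15a* was 248. The core genes had a median of 1049 in wild type (25th to 75th percentile 756 to 1302). Whether the copies or the intron-containing genes gave rise to the fragments was not tested.

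**Figure D4:**
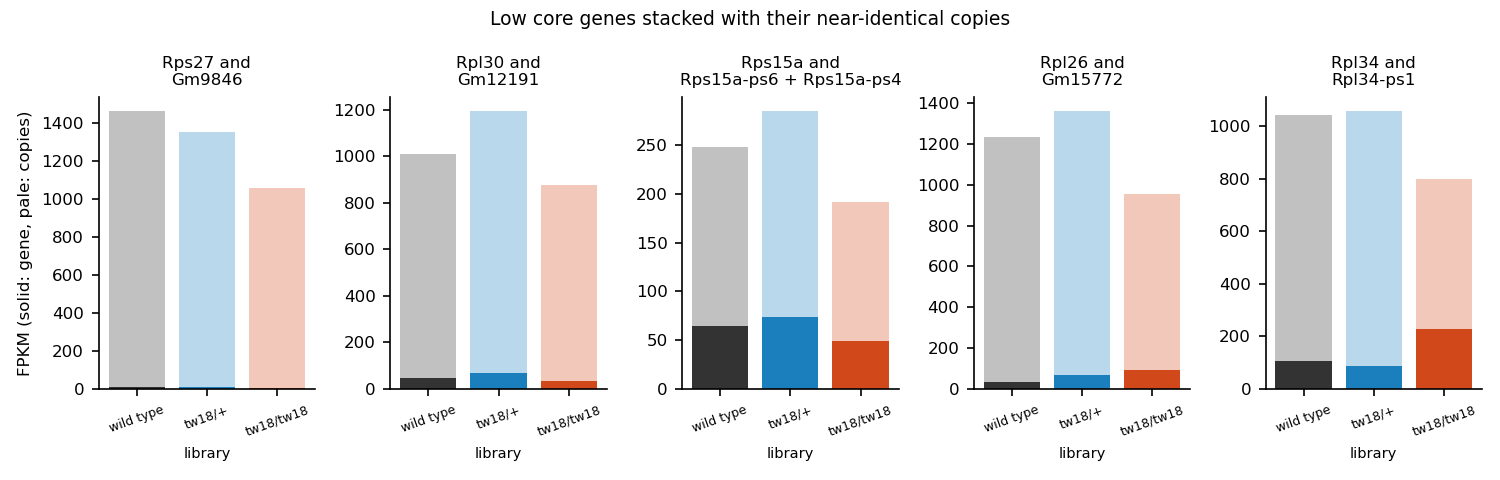
FPKM of the 5 low core genes (solid) stacked with the near-identical copies listed in the table (pale) in each library, on linear axes that start at 0 and differ between panels. The solid part of *Rpl34* and *Rpl26* grows in tw18/tw18, and the height of the stack is lowest in tw18/tw18 in all 5 panels.

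Most core genes share sequence with other genes. Of the 76 core genes, 66 share at least 50% of the 50-base words of their coding sequence with other annotated genes, and 29 share all of them. These shares count all other genes together, so no single gene need hold all the shared words. Counting only other genes listed in the table, 11 core genes share at least 50%. Besides the 5 low genes these 11 were *Rpl21*, *Rpl29*, *Rpl31*, *Rpl37*, *Rplp2* and *Rps23*, with an FPKM from 376 (*Rpl37*) to 1145 (*Rps23*) in wild type. The 15 members, paralogs included, that share under 50% with all other annotated genes together had medians near those of all 82 genes. Their median log2 ratio against wild type was 0.12 in tw18/+ and -0.38 in tw18/tw18.

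The paralogs varied widely among themselves. *Rpl10l*, an intronless paralog of the X-linked *Rpl10* that is active in male meiosis, was at an FPKM of 1.77 in wild type, 5.42 in tw18/+ and 9.43 in tw18/tw18, which rests on about 23, 98 and 169 fragments. Against wild type the log2 ratio was 1.62 in tw18/+ and 2.41 in tw18/tw18 (approximate counting SE 0.33 and 0.32). It shares 12.5% of its coding words with another annotated gene, and its level was 0.0881%, 0.246% and 0.577% of that of *Rpl10* and *Rpl10l* together. *Rpl39l*, a paralog of *Rpl39* expressed in testis and stem cells, had 2.79, 4.32 and 6.02, on about 27, 58 and 81 fragments. Its ratio in tw18/tw18 against wild type was 1.11 on the log2 scale (SE 0.32) and 0.89 with a pseudocount of 1. Both are low genes, and 15.1% of all genes tested were higher by as much in this comparison.

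*Rpl22l1*, the paralog that can replace *Rpl22*, was the more abundant of its pair with an FPKM of 265 in wild type, 265 in tw18/+ and 165 in tw18/tw18. Its log2 ratio of -0.68 in tw18/tw18 was the lowest of all members after *Rplp1*, while *Rpl22* had -0.38. The share of *Rpl22l1* in the pair was 63.9%, 62.3% and 58.9%. *Rpl22l1* shares 81.4% of its coding words with *Gm15421*, which had an FPKM of 34.5, 49.4 and 40.9. *Rps27l*, a p53 target, had 394, 430 and 387, a log2 ratio of -0.026 in tw18/tw18, the smallest difference of all members. Its share beside *Rps27* was 97.9%, 97.6% and 98.4%. These shares rest on the low values listed for *Rps27*, whose coding sequence is identical to that of *Gm9846*, which was listed at far higher values.

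*Rpl36al* reached an FPKM of 294 in wild type, 361 in tw18/+ and 256 in tw18/tw18, which was 33.8%, 38.5% and 38.3% of its sum with *Rpl36a*. *Rpl7l1*, a paralog of *Rpl7*, had 66.0, 74.3 and 48.4, between 4.76% and 4.97% of the sum with *Rpl7* in the 3 libraries. *Rps4y2*, an older name of *Rps4l*, which the rule leaves out, had 126, 155 and 125 beside *Rps4x*.

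The ratios of tw18/+ against wild type went with the length of the coding sequence. The 10 core genes with the longest coding sequence, 789 to 1257 bases, were all higher in tw18/+, with a median log2 ratio of 0.16. Of the 10 shortest, 75 to 315 bases, 4 were higher and 6 lower, with a median of -0.063. Across the 76 core genes, all measured in the same 2 libraries, Spearman's rho was 0.39, and across the 71 without the low genes it was 0.49. In tw18/tw18 against wild type rho was -0.035, and the medians of the longest and shortest genes were -0.40 and -0.43. In tw18/tw18 against tw18/+, which shares the tw18/+ library with the first pair, rho was -0.39 across the 76 core genes. The medians of the longest and shortest genes were -0.58 and -0.37 there. *Rps21*, *Rps29*, *Rps28*, *Rpl36*, *Rpl39* and *Rpl38*, all of the shortest 10, were 6 of the 11 genes lower in tw18/+ than in wild type.

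Promoter windows of RefSeq (GRCm38.p6), from 250 bases before to 50 bases after the annotated start, were matched for 63 of the 83 genes. The following windows run from 50 bases before to 30 bases after the start, with the longest unbroken run of C or T in capitals. They are shown for some of the core genes at either end of the ratios of tw18/tw18 against wild type, as listed. *Rpl26*, *Rplp0* and *Rps20*, also at the ends, are not shown. *Rplp1* had no entry.

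Rps9: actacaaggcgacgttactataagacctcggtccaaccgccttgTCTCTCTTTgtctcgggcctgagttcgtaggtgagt
Rps12: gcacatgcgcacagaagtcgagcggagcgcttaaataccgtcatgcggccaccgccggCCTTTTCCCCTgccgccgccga
Rps25: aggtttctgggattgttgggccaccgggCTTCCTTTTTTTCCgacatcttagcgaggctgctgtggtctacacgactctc
Rps19: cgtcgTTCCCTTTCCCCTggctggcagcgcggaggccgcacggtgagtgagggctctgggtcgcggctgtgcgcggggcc
Rps4x: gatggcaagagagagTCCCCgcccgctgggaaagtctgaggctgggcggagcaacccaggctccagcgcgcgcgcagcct
Rpl34: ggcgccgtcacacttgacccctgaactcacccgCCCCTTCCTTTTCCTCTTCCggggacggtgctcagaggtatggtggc

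The windows are at chr7:3703991-3704070 (plus strand) for *Rps9*, chr10:23787180-23787259 (minus strand) for *Rps12*, chr9:44407664-44407743 (plus strand) for *Rps25*, chr7:24884626-24884705 (plus strand) for *Rps19*, chrX:102189362-102189441 (minus strand) for *Rps4x* and chr3:130730308-130730387 (minus strand) for *Rpl34*. The run had 9 bases in *Rps9*, 11 in *Rps12*, 14 in *Rps25*, 13 in *Rps19*, 5 in *Rps4x* and 20 in *Rpl34*. In *Rps9* and *Rpl34* it spans the annotated start. In *Rps25*, *Rps19* and *Rps4x* it lies wholly before the start and in *Rps12* wholly after it. A run in the window is therefore not the same as a TOP motif, which begins at the start of the mRNA. *Rps19* has 3 annotated starts and *Rpl34* 2, of which the start with the longest run is shown. A run of at least 8 C or T on the sense strand in the 80 bases was found in 63.5% of the 63 genes, in 33.6% of the 27025 genes with a window and in 35.0% of the 443 other genes with a mean FPKM of at least 100. CCGGAAG, on either strand of the 300 bases, was found in 39.7%, 9.93% and 22.6% of the same sets. GGGCGG on either strand was found in 61.9%, 38.2% and 73.1%, and TATAAA in 11.1%, 15.7% and 12.6%. A match is a description of the letters in the window and does not show that a factor binds there.

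Other genes of translation were mostly lower in tw18/tw18 as well, with medians between -0.33 and -0.44. All 20 TOP and elongation genes outside the rule were lower in tw18/tw18 than in wild type, with a median log2 ratio of -0.36, and none reached 1. *Eef1a1*, the elongation factor that brings aminoacyl-tRNA to the ribosome, stood at an FPKM of 4340 in wild type, 4633 in tw18/+ and 3653 in tw18/tw18, a log2 ratio of -0.25. *Fau*, a fusion gene that gives rise to a ribosomal protein, had -0.51, *Rps3a1* had -0.38, and *Gnb2l1*, the older name of the ribosomal scaffold gene Rack1, had -0.35. Of 33 initiation and termination factors, 32 were lower, with a median of -0.33 and none past the threshold. *Npm1*, a nucleolar chaperone that is also a TOP gene, had 2468, 2782 and 1496, a log2 ratio of -0.72.

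Of 74 ribosome biogenesis genes, 69 were lower in tw18/tw18 than in wild type, with a median of -0.44, and 1, *Rpf2*, which helps to build the 5S particle of the large subunit, was past the threshold (-1.04, from an FPKM of 49.0 to 23.8). *Ncl* had a log2 ratio of -0.71 and *Fbl*, the methyltransferase of the nucleolus, one of -0.61. Of 76 mitochondrial ribosomal protein genes, 65 were lower, with a median of -0.34, and *Mrpl18* (-1.20), *Mrpl21* (-1.16) and *Mrpl30* (-1.10) were past the threshold. Their ratios spread more widely (-0.57 to -0.10, 25th to 75th percentile) than those of the cytosolic genes. The 9 snoRNA host genes had a median of -0.38, with 8 lower. In tw18/+ against wild type the medians of these lists lay between 0.038 and 0.095, beside 0.10 for the cytosolic ribosomal protein genes, and none of their genes was past the threshold.

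**Figure D5:**
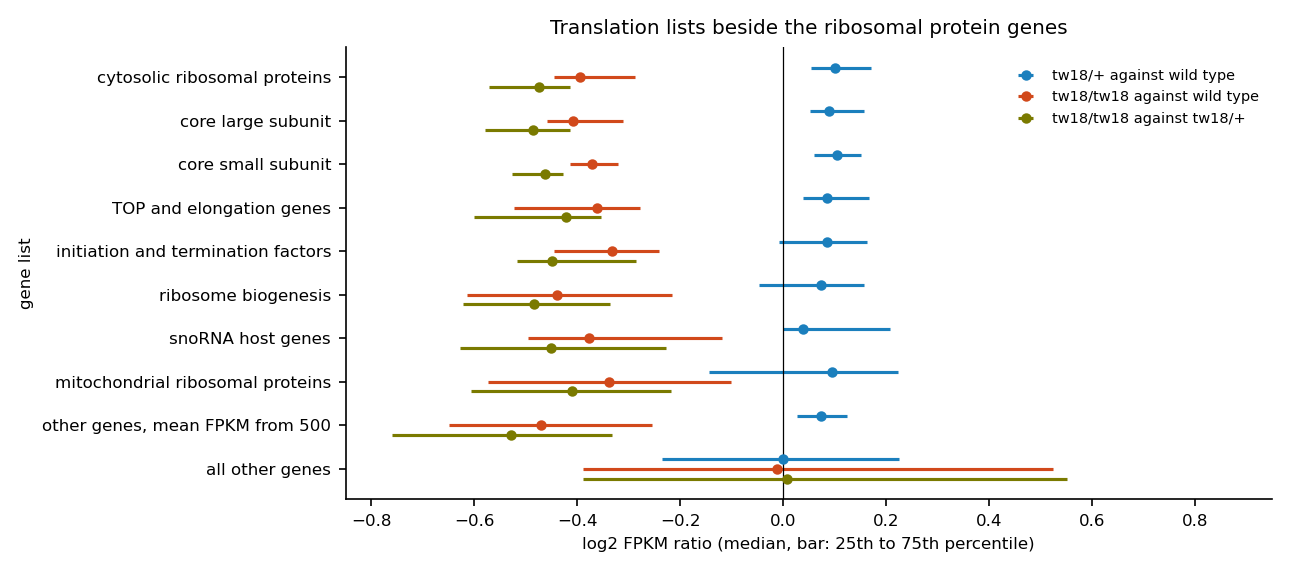
Median log2 FPKM ratio (points) with the 25th to 75th percentile (bars) of the ribosomal protein genes, 5 other translation lists, the other genes with a mean FPKM of at least 500 and all other genes, for the 3 pairs of libraries. The translation lists and the other abundant genes lie between -0.33 and -0.47 in tw18/tw18 against wild type, and all other genes together lie near 0.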

How the data were processed

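The deposited table holds FPKM values of 23421 gene symbols in 3 libraries of total RNA (TotalScript kit, 50 bp paired-end, strand-specific). Mapping by the authors used TopHat on mm10 (GRCm38), and Cuffdiff calculated the FPKM values. The submitters' processing notes name TopHat2, Bowtie 1.0.0 and Cufflinks 2.2.1. The annotation, library normalization and treatment of reads with several matches are not given in the sources used here. Columns were assigned by the genotype in their names.

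Log2 ratios were computed without a pseudocount where the higher FPKM was 1 or more, using Python 3.11.15, numpy 2.4.6, pandas 2.3.3 and matplotlib 3.10.9. The threshold of 1 is that of the study. Depth was estimated from low values of genes with 1 transcript, allowing 150 bp for the fragment; 74.5% to 80.7% of them lay within 0.2 of a whole fragment, so depths, fragment numbers and their errors are approximate. These errors leave out everything but counting, and PCR copies are not independent molecules. Shared words and positions came from GENCODE M21, where all 83 genes were found.

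Named were the 5 highest and 5 lowest core genes by mean FPKM, members past the threshold or at 0, the 5 highest and 5 lowest ratios of tw18/tw18 and the 3 highest and 3 lowest of tw18/+, the paralog pairs, members on chromosome 17, those with known other roles and both disease lists. Genes named outside these were chosen after their values were seen. The members and lists were chosen with earlier results of these data known. Alternatives were other pseudocounts, filters, thresholds, scalings and member sets.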

Additional observations from a re-analysis of the deposited data

How the results depend on the processing

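Depth limits *Rps27*, *Rpl10l* and *Rpl39l*, with under 200 fragments each, and 1 library per genotype gives no spread between embryos. The share of words elsewhere in the genome could not be computed, since no genome sequence was used, and annotated transcripts stood in, a choice made after seeing the data, as were *Rps3a1* and *Fau* added, sums with copies, core genes without the 5 lowest, paralogs included, and scalings without *Lars2* or on other abundant genes. No paired analysis was possible because each genotype has 1 library. The cause of the changes below was not tested.

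In the order tw18/+ against wild type, tw18/tw18 against wild type and tw18/tw18 against tw18/+, the median log2 ratio of the ribosomal protein genes was 0.065, -0.18 and -0.23 with equal FPKM sums, 0.060, -0.22 and -0.26 with equal sums without *Lars2*, and 0.12, -0.38 and -0.47 for genes with under 50% of words in other annotated genes. Centred on the median gene it was -0.35 and -0.42 in the last 2 comparisons. Centred on the other genes with a mean FPKM of at least 500 it was 0.027, 0.077 and 0.070, so the last 2 changed their sign. On that scaling the medians of the TOP and elongation, initiation, biogenesis, snoRNA host and mitochondrial lists also changed sign, to 0.11, 0.14, 0.033, 0.093 and 0.13 against wild type and to 0.12, 0.097, 0.061, 0.093 and 0.14 against tw18/+. In tw18/+ against wild type those of biogenesis and snoRNA hosts became -0.00084 and -0.036. Under the other pseudocounts, filters and member sets the 3 medians kept their sign.

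The number of genes higher past the threshold in tw18/+ against wild type was 4 at a log2 threshold of 0.5 and 0 at 2, with an FPKM of at least 10 or without the 5 lowest core genes and the paralogs. In tw18/tw18 against wild type, 1 gene was higher at a threshold of 2, 2 with an FPKM of at least 10, 2 with copies summed and 0 without the 5 lowest and the paralogs, while 11 were lower at a threshold of 0.5. Against tw18/+, 2 genes were higher at a threshold of 0.5, with equal sums and with equal sums without *Lars2*, and 0 at a threshold of 2, with copies summed and without the 5 lowest and the paralogs. In that comparison 32 were lower at 0.5 and 0 at a threshold of 2, with equal sums, with or without *Lars2*, centred on the median gene, with copies summed and without the 5 lowest and the paralogs. *Rpl26* and *Rpl34* in tw18/tw18 against wild type changed sign with copies summed, to -0.37 and -0.38.

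Large minus small subunit was -0.053 in tw18/tw18 against wild type and -0.031 against tw18/+ without the 5 lowest core genes, and -0.030 against tw18/+ with paralogs included. The share of the FPKM sum was 19.1% in wild type and 19.8% in tw18/+ without *Lars2*, and 19.1%, 19.9% and 16.96% in the 3 libraries with *Rps3a1* and *Fau* added. Adding 1 FPKM to both genes gave *Rpl10l* a share of 0.138% in wild type. For 54 named genes, 489 of 496 values under an alternative stayed on their side of the threshold and 480 kept their sign. Centring on the other abundant genes was not among the alternatives for single genes. On that scaling 67 of the 82 genes were above 0 in tw18/tw18 against wild type and 15 were below.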

Other observations

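The table also lists 34 snoRNA or microRNA genes that lie inside 24 of the ribosomal protein genes, whose introns many snoRNAs are cut from. Of these, 17 were listed at 0 in all 3 libraries and 30 in at least 1, and the highest FPKM was 7.98.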
